A study of Mus musculus with 4 samples.

Results

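The 10 genes described here encode receptors, ligands and other proteins of sprouting blood vessels. They are the vascular endothelial growth factor (VEGF) receptors Flt1, Kdr and Flt4, the Tie2 ligand Angpt2, the secreted proteoglycan Esm1, the peptide Apln and its receptor Aplnr, the Notch ligand Dll4, the fenestra and caveola diaphragm protein Plvap, and the cyclic nucleotide phosphodiesterase Pde2a. They were chosen by name, and all 10 were among the 28889 genes listed over the libraries with counts. The samples were single-cell suspensions of liver tumours from male C57BL/6 mice aged 18 weeks, 10 weeks after hydrodynamic tail vein injection of plasmids for c-MYC and AKT with the SB100X transposase, which every mouse received. The KLF2 group (2 libraries, replicates 1 and 2) also received pT3-EF1α-KLF2, and the vector group (1 library with counts, replicate 2) received pT3 empty vector. The EF1α promoter is active in many cell types. The plasmids enter mainly hepatocytes by this route, so the vessels studied here are those of the host mouse in and around the tumours.

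In a growing vessel, VEGF signals through Kdr on endothelial cells, while Flt1 binds VEGF tightly and can act as a decoy. The leading tip cell of a sprout is known for high Kdr, Flt4, Dll4, Esm1, Apln and Angpt2, and Dll4 on the tip cell activates Notch in its neighbours and restrains them from sprouting. Angpt2 is stored in endothelial cells and, when released, opposes the stabilising action of Angpt1 on Tie2 in most settings. KLF2 is a zinc-finger transcription factor of the Krüppel-like family, is induced by blood flow in endothelial cells, and binds CACCC elements in DNA.

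Flt1 and Esm1 were both called higher in endothelial-like cells of the KLF2 tumours (values below), and both have an entry among the promoter sequences. The call of Flt1 was lost with an offset for gene span, described below. Flt4, which also has an entry, was called higher with and without that offset. The 250 bases before the start sites of Flt1 and Esm1 are shown here, in RefSeq sequence of GRCm38.p6. The Flt1 window is chr5:147726012-147726261 on the minus strand and the Esm1 window is chr13:113209409-113209658 on the plus strand. Capitals mark CACCC or its reverse complement GGGTG, searched on both strands.
Flt1: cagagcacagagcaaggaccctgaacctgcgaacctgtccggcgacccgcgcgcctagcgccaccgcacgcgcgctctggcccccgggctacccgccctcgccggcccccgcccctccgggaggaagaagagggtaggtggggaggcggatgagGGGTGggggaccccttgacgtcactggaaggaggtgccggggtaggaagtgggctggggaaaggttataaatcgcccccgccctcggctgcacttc
Esm1: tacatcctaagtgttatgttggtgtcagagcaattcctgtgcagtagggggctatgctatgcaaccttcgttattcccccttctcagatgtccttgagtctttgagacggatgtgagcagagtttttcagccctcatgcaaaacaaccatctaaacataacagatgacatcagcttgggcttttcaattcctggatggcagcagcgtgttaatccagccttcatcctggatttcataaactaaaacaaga
The Flt1 window held 1 such element and the Esm1 window none. Entries were found for 7 of the 10 genes, with 11 windows in all, of which 7 held the element, against 52.0% of all 32851 windows of the same length. Several of the 11 windows belong to Pde2a, and some of those overlap, so the windows are not 1 per gene. These matches are letters in a window and not evidence of binding.

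The libraries differed in ways that touch the values below. They held 95374838 and 125458473 unique molecular identifiers (UMIs, each counting 1 captured RNA molecule) in 6282 and 11240 cells in KLF2 replicates 1 and 2, against 45594544 UMIs in 12852 cells in vector replicate 2. The lowest UMI count of a cell was 1000 in both KLF2 libraries and 522 in the vector library, and the median share of mitochondrial UMIs in the cells kept was 0.223% and 0.345% in KLF2 replicates 1 and 2, against 11.9% in vector replicate 2. The gene lists of the libraries differed. Of genes listed in the 3 other libraries, 2710 were missing from the list of vector replicate 2, and 77 of these had at least 1000 UMIs in each KLF2 library. Fold changes also followed gene span, the length of a gene from its first to its last annotated base. In endothelial-like cells the median log2 fold change, KLF2 over vector, was -0.30 for 2510 genes of up to 10 kb and 1.59 for 594 genes over 200 kb, and the same order held in the 5 other classes tested between genes of up to 10 kb and genes over 200 kb. Since only 1 vector library had counts, such differences between libraries and the action of KLF2 cannot be told apart, and p-values rest on the spread between the 2 KLF2 libraries. The endogenous Klf2 symbol checks the labels only if the transgene is counted under it. It had 327 and 379.6 CPM (UMIs of a gene per 1e6 UMIs of the cells summed) in the cells with little Ptprc of KLF2 replicates 1 and 2, against 146 CPM in those of vector replicate 2. Ptprc encodes the leukocyte surface phosphatase. The name stands for the hepatocyte-like and bile duct-like clusters, and for unnamed clusters with under 100 CPM of Ptprc. Only the unnamed clusters were chosen by Ptprc, and 614 of the 617 such cells of vector replicate 2 were hepatocyte-like. In endothelial-like cells Klf2 had 248 and 549 CPM in KLF2 replicates 1 and 2, against 298.5 CPM in vector replicate 2. Its log2 fold change there was 0.07 ± 0.30 and did not pass the test (edgeR adjusted p = 0.901). In T/NK-like cells Klf2 was called lower (log2 fold change -1.16, edgeR adjusted p = 0.00535), and in the other classes tested it was not called. The species of the KLF2 in the plasmid is not given in the labels.

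**Figure D1:**
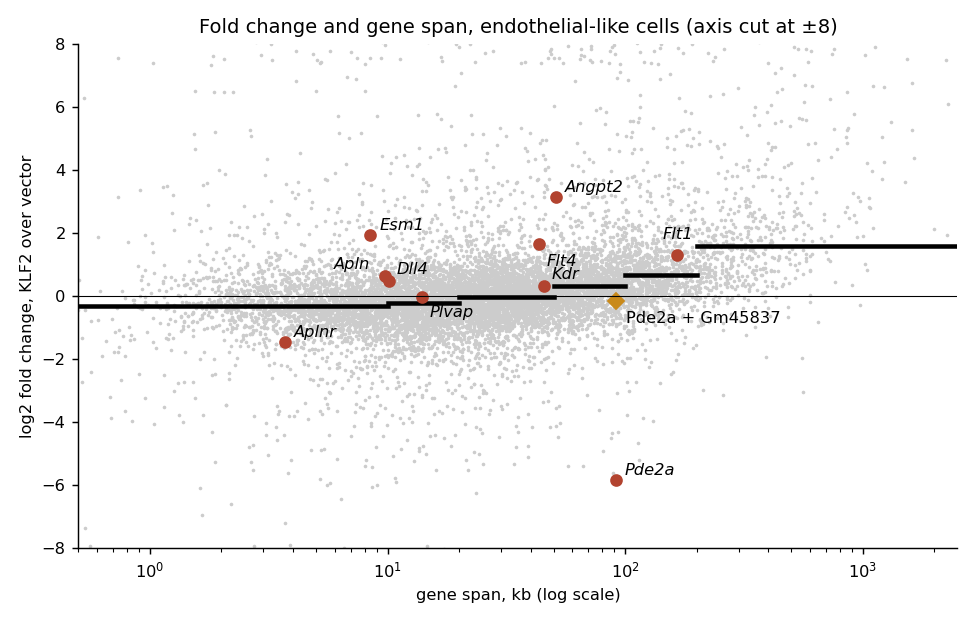
Log2 fold change, KLF2 over vector, in endothelial-like cells (y axis, cut at ±8) against gene span in kb (x axis, log scale) for all genes tested (grey). Black bars are medians of span classes, which were -0.30 for genes of up to 10 kb and 1.59 for genes over 200 kb; red points are the 10 genes, and the diamond is Pde2a counted together with Gm45837.

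Endothelial-like cells were named from 14 markers that include none of the 10 genes, and the 10 genes were also left out of the clustering. They numbered 99 and 252 cells in KLF2 replicates 1 and 2, against 1792 in vector replicate 2. All 14 markers were found in each library, with a summed level of 6907 and 4764 CPM in KLF2 replicates 1 and 2, against 4579 CPM in vector replicate 2. None of the 14 was called by edgeR (adjusted p threshold 0.05), 2 had an unadjusted p under 0.05, and none was called by DESeq2. The endothelial-like cells fell into separate clusters, with nearly all vector cells in the clusters led by Fabp4 and Nts and nearly all KLF2 cells in the cluster led by Gpihbp1. Their median mitochondrial share was 0.685% and 0.743% in KLF2 replicates 1 and 2, against 10.6% in vector replicate 2. T/NK markers summed to 6.25 and 23.9 CPM in the endothelial-like cells of KLF2 replicates 1 and 2, against 429 CPM in those of vector replicate 2, and erythroid markers to 1214 and 25.3 CPM, against 97.97 CPM in vector replicate 2. Their part in the results was not tested, except that sub-clusters with many leukocyte markers were left out in an added fit.

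Of the 10 genes, 4 rose in endothelial-like cells of the KLF2 tumours (Angpt2, Esm1, Flt4 and Flt1), 2 were called lower (Aplnr and Pde2a), and 4 did not pass the test (Kdr, Apln, Plvap and Dll4). Over all 10652 genes tested in these cells, 14.4% were called higher and 13.6% lower. The median log2 fold change of the 10 genes was 0.54, against 0.03 over all genes tested. With an offset for gene span, 4 were again called higher and 2 lower (background 10.6% and 12.6% of 10583 genes), but Apln took the place of Flt1 among the genes called higher. The lower level of Pde2a was not found when the reads of a gene model that spans it were added, as described with that gene. The calls also turned on how the cells were chosen. When cells were taken one by one for having at least 3 of the 14 markers and no UMI of Ptprc or Alb, in place of by cluster, none of the 10 was called higher (0 also at an unadjusted p under 0.05) and 9 were called lower by edgeR. Over all genes in that fit, 2880 were called higher and 2555 lower. Of the cells taken that way, 14.5% and 21.4% lay in endothelial-like clusters in KLF2 replicates 1 and 2, against 81.4% in vector replicate 2, and the 14 markers summed to 526 and 498 CPM, against 3970.2 CPM.

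**Figure D2:**
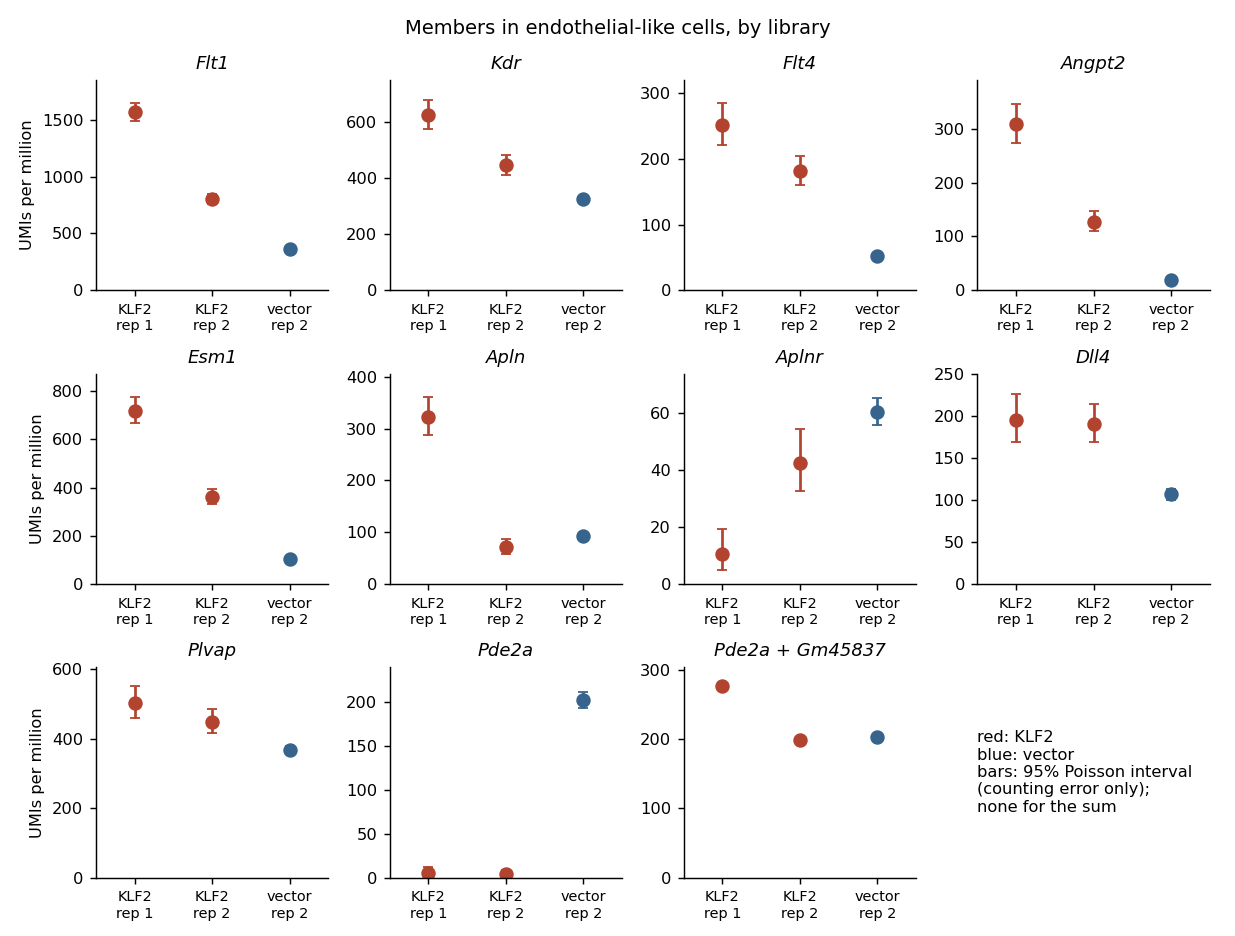
CPM (y axis) of each of the 10 genes in endothelial-like cells of KLF2 replicates 1 and 2 (red) and vector replicate 2 (blue); bars are 95% Poisson intervals, cover counting error only and are not drawn for the sum. Angpt2, Esm1, Flt1 and Flt4 were higher in both KLF2 libraries, Aplnr was lower in both, and the sum of Pde2a and Gm45837 was similar in KLF2 replicate 2 (199 CPM) and vector replicate 2 (203 CPM).

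Among the VEGF receptors, Flt1 (chr5:147561604-147726011, minus strand, GRCm38 with the GENCODE M21 annotation, as for all positions of genes here) had 1572 and 803 CPM in endothelial-like cells of KLF2 replicates 1 and 2, against 361 CPM in vector replicate 2. Both KLF2 libraries lay above the vector library, and the log2 fold change was 1.30 ± 0.29 (SE; edgeR adjusted p = 0.000157). Flt1 spans 164 kb, and genes of that span had a typical log2 fold change of 0.82, so that with the offset for span its log2 fold change was 0.48 ± 0.28 (edgeR adjusted p = 0.219). Flt4 (chr11:49609263-49652739, plus strand), the receptor for VEGF-C and VEGF-D, had 251 and 181 CPM in KLF2 replicates 1 and 2, against 52.2 CPM in vector replicate 2. Its log2 fold change was 1.64 ± 0.33 (SE; edgeR adjusted p = 2.46e-05), and 1.56 ± 0.33 with the offset (edgeR adjusted p = 4.74e-05). Kdr (chr5:75932827-75978458, minus strand), the main signalling receptor for VEGF-A, had 625 and 446 CPM in KLF2 replicates 1 and 2, against 324.5 CPM in vector replicate 2, which after scaling was a log2 fold change of 0.32 ± 0.29 and did not pass the test (edgeR adjusted p = 0.457). The CPM values carry no scaling between libraries. With library totals alone the median log2 fold change of all genes was 0.42 in place of 0.03, and the fold changes given here are after scaling.

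Angpt2 (chr8:18690263-18741562, minus strand) had the largest rise of the 10 genes, with 309 and 128 CPM in endothelial-like cells of KLF2 replicates 1 and 2, against 18.2 CPM in vector replicate 2. Most of its UMIs came from 1 sub-cluster, K1, described below. K1 held 255 of 296 in 29 of 99 cells of KLF2 replicate 1, and 131 of 187 in 79 of 252 cells of KLF2 replicate 2. The log2 fold change was 3.14 ± 0.37 (SE; edgeR adjusted p = 7.56e-13) and 2.99 ± 0.37 with the offset for span. It overlaps Mcph1 on the opposite strand, and whether counting used strand is not given in the sources used here. After each cell was thinned to 1000 UMIs, 11 of 99 and 18 of 252 cells had an Angpt2 UMI in KLF2 replicates 1 and 2 (11.1% and 7.14%; Wilson 95% intervals 6.32 to 18.8% and 4.57 to 11.0%), against 25 of 1737 cells (1.44%; 0.977 to 2.12%) in vector replicate 2. In T/NK-like cells, which should lack the gene, 0 of 96 and 0 of 399 thinned cells had one in KLF2 replicates 1 and 2 (Wilson upper bounds 3.85% and 0.954%), against 3 of 3000 (0.1%) in vector replicate 2. Without thinning, the shares of endothelial-like cells were 26.3% and 18.3% in KLF2 replicates 1 and 2, against 6.64% in vector replicate 2, at median depths of 6196, 4191.5 and 4239.5 UMIs per cell. The T/NK-like cells had medians of 5316, 3324 and 3148 UMIs in the same order of libraries.

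Esm1 (chr13:113209659-113218098, plus strand, overlapping Gzmk on the other strand), a marker of tip cells induced by VEGF, had 719 and 361 CPM in endothelial-like cells of KLF2 replicates 1 and 2, against 105 CPM in vector replicate 2. Its log2 fold change was 1.94 ± 0.33 (SE; edgeR adjusted p = 2.97e-07), and it was larger with the offset for span (2.22 ± 0.33). It spans 8.44 kb, and the typical log2 fold change at that span was -0.28. Thinned cells with an Esm1 UMI made up 19.2% and 15.9% of endothelial-like cells in KLF2 replicates 1 and 2, against 9.21% in vector replicate 2. Without thinning they were 37.4% and 25%, against 26.8%, so that on this measure KLF2 replicate 2 did not lie above vector replicate 2. Angpt2 and Esm1 shared cells in the KLF2 tumours. Of thinned cells with an Angpt2 UMI, 7 of 11 and 11 of 18 in KLF2 replicates 1 and 2 also had an Esm1 UMI, against 3 of 25 in vector replicate 2, and of thinned cells without one, 13.6% and 12.4%, against 9.17%, had an Esm1 UMI. These shares describe cells of 3 libraries and were not tested.

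The apelin ligand and receptor differed. Apln (chrX:48025146-48034853, minus strand), the ligand, had 323 CPM in endothelial-like cells of KLF2 replicate 1 and 71.7 CPM in those of KLF2 replicate 2, against 92.7 CPM in vector replicate 2, so that the KLF2 libraries lay on either side of the vector library. Its log2 fold change was 0.62 ± 0.34 (edgeR adjusted p = 0.168), and 0.90 ± 0.33 with the offset for span (edgeR adjusted p = 0.0284). With KLF2 replicate 1 left out it was -0.63 and with KLF2 replicate 2 left out 1.36, both with no test. Aplnr (chr2:85136225-85139923, plus strand), the receptor, had 10.4 and 42.3 CPM in KLF2 replicates 1 and 2, against 60.2 CPM in vector replicate 2, and its log2 fold change was -1.46 ± 0.32 (SE; edgeR adjusted p = 0.000115). This rested on 10 and 62 UMIs in the KLF2 libraries. It was -0.77 without KLF2 replicate 1 and -2.97 without KLF2 replicate 2, and the call was lost with DESeq2 (adjusted p = 0.753).

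Dll4 (chr2:119325784-119335962, plus strand, overlapping Gm14207 on the other strand) had 196 and 190.4 CPM in endothelial-like cells of KLF2 replicates 1 and 2, against 107 CPM in vector replicate 2. Both KLF2 libraries lay above vector, but the scaled log2 fold change of 0.47 ± 0.31 did not pass the test (edgeR adjusted p = 0.284). Plvap (chr8:71497765-71511752, minus strand, overlapping Gtpbp3 on the other strand) had 503 and 449 CPM in the KLF2 libraries, against 368 CPM in vector. Its log2 fold change was -0.02 ± 0.29 (edgeR adjusted p = 0.969) and changed sign between settings. Thinned cells with a Plvap UMI were 26.3% and 25% of endothelial-like cells in KLF2 replicates 1 and 2, against 28.0% in vector replicate 2 (64.6% and 53.2%, against 63.6%, without thinning).

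**Figure D3:**
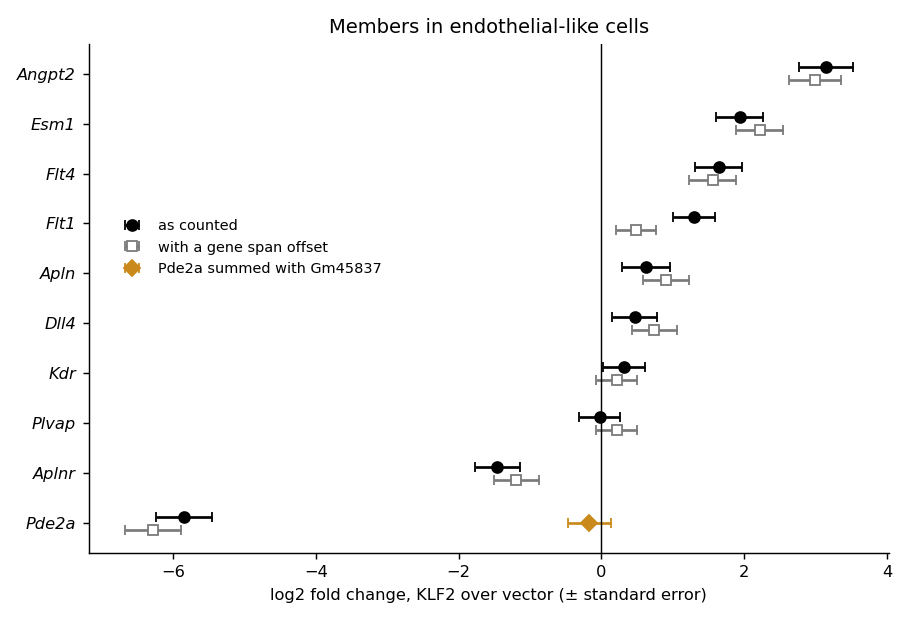
Log2 fold change, KLF2 over vector, of the 10 genes in endothelial-like cells (x axis, bars are ± 1 SE), as counted (black), with an offset for gene span (open squares) and, for Pde2a, summed with Gm45837 (diamond). Flt1 moved from 1.30 to 0.48 with the offset, and Pde2a from -5.84 to -0.17 with the sum.

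Pde2a, which hydrolyses cGMP and cAMP, had 5.21 and 4.09 CPM in endothelial-like cells of KLF2 replicates 1 and 2, against 203 CPM in vector replicate 2, a log2 fold change of -5.84 ± 0.39 (SE; edgeR adjusted p = 7.56e-30). The same symbol was called lower in each of the 4 other classes where it was tested. In the GENCODE M21 annotation of GRCm38, Pde2a lies on chr7:101421691-101512827 on the plus strand, and the protein-coding gene model Gm45837 runs over it on the same strand. Gm45837 had 261 and 286 UMIs in endothelial-like cells of KLF2 replicates 1 and 2 and is missing from the gene list of vector replicate 2, although vector replicate 1 lists it. Summed, the 2 symbols had 277 and 199 CPM in KLF2 replicates 1 and 2, against 203 CPM in vector replicate 2. The log2 fold change of the sum was -0.17 ± 0.30 and did not pass the test (edgeR adjusted p = 0.726). In T/NK-like, myeloid-like and B/plasma-like cells the call was also lost with the sum (log2 fold changes -0.80, 0.31 and -0.67). In mesenchymal-like cells the sum had 17.7 and 20.1 CPM in KLF2 replicates 1 and 2, against 54.5 CPM in vector replicate 2, and remained lower (log2 fold change -2.15 ± 0.46, edgeR adjusted p = 6.18e-05).

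Endothelial-like cells were clustered again within each group, and levels by sub-cluster are a description. The KLF2 cells formed sub-clusters K0 to K4 and the vector cells V0 to V6. K1 (108 cells) was led by Igfbp3, Nts, Ly6c1 and Apln. It had 529 and 230.0 CPM of Angpt2 in KLF2 replicates 1 and 2, 1256 and 739 CPM of Esm1 and 629 and 159.8 CPM of Apln, which for Esm1 and Apln were the highest values of any sub-cluster in each KLF2 library. In KLF2 replicate 1 it was 29 of 99 endothelial-like cells but 481786 of their 959553 UMIs. There it held 605 of 690 Esm1 UMIs and 303 of 310 Apln UMIs. In KLF2 replicate 2 it held 421 of 529 and 91 of 105, in 79 of 252 cells. The arterial-like K3 (48 cells), led by Mecom and Plcl1, had 320.2 and 232 CPM of Angpt2 and 549 and 507 CPM of Esm1, but 11.4 and 47.7 CPM of Apln. In the sinusoidal-like K2 (54 cells, led by Adam23 and Clec4g) Angpt2 was at 10.4 and 26.1 CPM in KLF2 replicates 1 and 2. K0, the largest KLF2 sub-cluster (125 cells), had 34.7 and 27.4 CPM of Angpt2 and 75.2 and 25.1 CPM of Esm1 in KLF2 replicates 1 and 2. Esm1 in K2 was at 125 and 78.2 CPM. Vector sub-clusters ran from 3.27 to 32.4 CPM of Angpt2 and from 15.7 to 168 CPM of Esm1. Esm1 in K0 and K2 thus lay within the vector range, and Angpt2 in K0 and K2 lay within it or close to its top.

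Flt4 and Kdr were highest elsewhere. In K2 they had 613 and 470 CPM (Flt4) and 1086 and 789 CPM (Kdr) in KLF2 replicates 1 and 2, whereas Flt1 was highest in K3 (2882 and 1520.5 CPM). Over values of at least 10 cells, Flt4 ran from 101 to 613 CPM in KLF2 sub-clusters and from 25.9 to 80.4 CPM in vector sub-clusters, without overlap. The ranges of the other genes overlapped, those of Pde2a summed with Gm45837 included, except that Pde2a under its own symbol did not (0 to 15.6 CPM in KLF2 and 30.6 to 361 CPM in vector sub-clusters). Ranges were not computed for genes beyond these, so how common such a lack of overlap is over all genes is not known. Dll4 was highest in the arterial-like sub-clusters, K3 in both KLF2 libraries (503 and 346 CPM) and V4 in vector (252 CPM), which was led by Gja5 and Sema3g. The sum of Pde2a and Gm45837 was lowest in the same sub-clusters of each library, at 160.1 and 119 CPM in K3 and 30.6 CPM in V4. Plvap was at 758 and 757 CPM in K1, and at 476 CPM in V1, the vector sub-cluster with the highest Plvap.

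**Figure D4:**
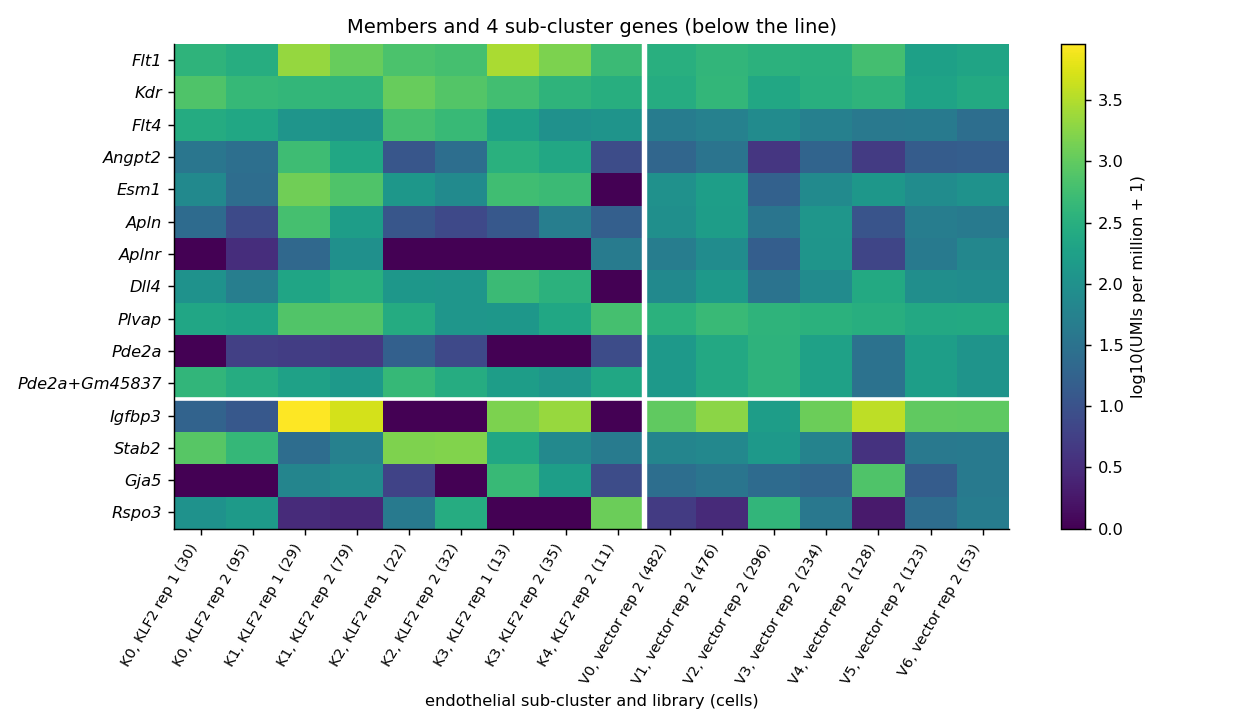
Level of the 10 genes, of Pde2a summed with Gm45837, and of 4 sub-cluster genes (rows) in endothelial sub-clusters of at least 10 cells in a library (columns, KLF2 left and vector right, cells in brackets); colour is log10(CPM + 1). Angpt2, Esm1 and Apln were high together in K1, and Flt4 and Kdr in K2.

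Sub-clusters K0, V5 and V6 carried at least 1000 CPM of T/NK or myeloid markers in a library. Without them, 69 and 157 cells remained in KLF2 replicates 1 and 2, against 1616 in vector replicate 2. Again 4 of the 10 genes were called higher and 2 lower, with Angpt2 at a log2 fold change of 3.37, Esm1 at 2.22, Flt4 at 1.44 and Flt1 at 1.43. Over all genes in that fit, 1211 were called higher and 1197 lower.

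In the rest of the tumour the 10 genes were low. Each was highest in endothelial-like cells in each of the 3 libraries among classes of at least 50 cells. In mesenchymal-like cells Plvap reached 75.1 and 28.4 CPM in KLF2 replicates 1 and 2, against 155 CPM in vector replicate 2, and fell (log2 fold change -2.21 ± 0.43, edgeR adjusted p = 7.32e-06). The 14 endothelial markers summed to 372 and 369 CPM in those cells, against 621 CPM in vector, and the part of endothelial RNA in this was not tested. Flt1 had 23.5 and 40.0 CPM in the cells with little Ptprc in KLF2 replicates 1 and 2, against 17.6 CPM in vector. Relative to the endothelial markers in the same cells, Flt1 there was at 0.634 and 1.501 times its ratio in endothelial-like cells in KLF2 replicates 1 and 2, against 0.599 in vector replicate 2, while Kdr was at 0.0447 and 0.0725 times, against 0.867. These cells held 54.2% and 73.9% of all Flt1 UMIs in KLF2 replicates 1 and 2, against 1.34% in vector replicate 2, and were 83.8% and 75.0% of the cells in KLF2 replicates 1 and 2, against 7.34% in vector replicate 2. They were also of unlike kind, since 20 of 5206 and 57 of 8325 were hepatocyte-like in KLF2 replicates 1 and 2, against 614 of 617 in vector replicate 2. Flt1 spans 164 kb, and its levels in these cells carry no offset for span and were not tested.

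Outside endothelial-like cells none of the 10 genes was called higher by edgeR in the 4 classes where any was tested (background 10.2% of genes called higher in T/NK-like, 14.8% in myeloid-like, 11.2% in mesenchymal-like and 8.56% in B/plasma-like cells). At an unadjusted p under 0.05 there was 1, in myeloid-like cells, and DESeq2 called none. Called lower were 5 of 6 tested in T/NK-like cells (Kdr, Esm1, Plvap, Dll4 and Pde2a; background 7.28%), 5 of 9 in myeloid-like cells (the same genes; 8.71%), 3 of 7 in mesenchymal-like cells (Kdr, Plvap and Pde2a; 9.08%) and Pde2a alone in B/plasma-like cells (8.3%). DESeq2 called 0 of them lower in T/NK-like and B/plasma-like cells, 3 in myeloid-like and 2 in mesenchymal-like cells. The share of all genes that DESeq2 called in these classes is not given here, so these counts have no background beside them. Summed with Gm45837, Pde2a was called in mesenchymal-like cells but not in the T/NK-like, myeloid-like or B/plasma-like ones. In neutrophil-like cells none of the 10 passed the filter on low counts (background 6.09% higher and 4.92% lower). Kdr in T/NK-like cells had 0 and 1 UMI in KLF2 replicates 1 and 2, against 150 in vector replicate 2. The 14 endothelial markers moved the same way there, with 125 and 85.2 CPM in KLF2 replicates 1 and 2, against 278 CPM in vector replicate 2, and endothelial-like cells were 1.59% and 2.27% of cells in the KLF2 libraries, against 21.3% in vector. Their part in these lower levels was not tested.

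**Figure D5:**
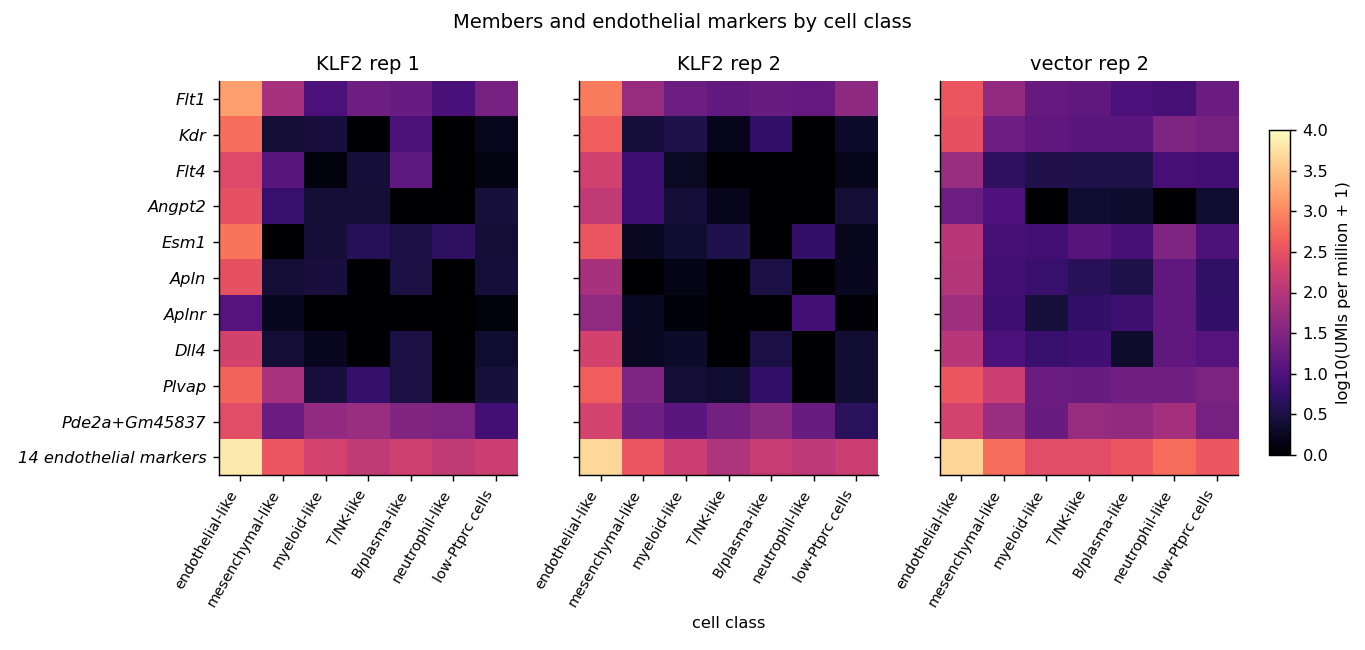
Level of the 10 genes (Pde2a summed with Gm45837) and of the 14 endothelial markers together (rows) by cell class (columns) in KLF2 replicates 1 and 2 and vector replicate 2 (panels, left to right); colour is log10(CPM + 1). Every row is brightest in endothelial-like cells in each library.

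Over 25 points, each a class in a library, the genes whose log2(CPM + 10) followed the mean of the 10 most closely were Adgrl4 (Pearson r = 0.987), She, Emcn, Unc45b, Mmrn2, Btnl9, Robo4, Dchs1, Cd300lg and Arhgef15 (0.976). Emcn, Mmrn2 and Robo4 were among the 14 endothelial markers. The points share libraries and cell classes, so the coefficients are a description. Of the 10 genes themselves, Kdr (0.987) and Dll4 (0.984) lay nearest to the mean and Pde2a under its own symbol farthest (0.447). Each of the 10 is itself part of that mean, so these coefficients cannot be set beside those of the other genes.

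The genes that act with the 10 were read from lists in the same endothelial-like cells, where 14.4% of all genes tested were called higher and 13.6% lower (10.6% and 12.6% with the offset for span). Counts near these shares, as for the Notch genes or the lower calls of the tip cell and stress lists, do not set a list apart. Of the VEGF ligands, 3 of 4 tested rose and 1 fell. Vegfa had 14.6 and 42.3 CPM in KLF2 replicates 1 and 2, against 4.25 CPM in vector replicate 2 (log2 fold change 2.43 ± 0.46, edgeR adjusted p = 5.17e-06). Vegfc, a ligand of Flt4, had 99.0 and 92.8 CPM, against 21.45 CPM in vector (1.77 ± 0.32, edgeR adjusted p = 1.7e-06), and Pgf, a ligand of Flt1, had 120 and 76.4 CPM, against 34.9 CPM (1.07 ± 0.31, edgeR adjusted p = 0.00447). Vegfb fell by 1.23 on the log2 scale, a call that was lost with the offset for span (edgeR adjusted p = 0.144). Vegfa was higher in other classes too, so its rise was not particular to endothelial-like cells. It was called higher by edgeR in T/NK-like (log2 fold change 3.66), B/plasma-like (3.89) and mesenchymal-like cells (2.85), but not in neutrophil-like cells. In KLF2 replicates 1 and 2 it had 31.5 and 32.9 CPM in T/NK-like and 16.7 and 68.0 CPM in B/plasma-like cells. In vector replicate 2 these classes had 2.17 and 2.29 CPM. In the cells with little Ptprc it had 73.5 and 108 CPM in KLF2 replicates 1 and 2, against 8.19 CPM in vector replicate 2, with no test there. Those cells lay in different clusters, since 20 of 5206 and 57 of 8325 were hepatocyte-like in KLF2 replicates 1 and 2, against 614 of 617 in vector replicate 2. In myeloid-like cells it had 131 and 96.6 CPM in KLF2 replicates 1 and 2, against 2.99 CPM in vector replicate 2 (log2 fold change 4.92 ± 0.44, edgeR adjusted p = 0.00017). Of the vector myeloid-like cells, 695 of 706 lay in the cluster led by H2-Aa and H2-Ab1, which held 2 and 4 cells of KLF2 replicates 1 and 2, and most KLF2 myeloid-like cells lay in the clusters led by Mmp12, Cd5l, Plac8 and Saa3.

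Of 8 VEGF co-receptors and receptor partners tested, 5 rose and 1, the phospholipase Plcg1, fell. With the offset for span 3 were called higher and 2 lower, Plcg1 and the co-receptor Nrp1 (both named after their values were seen). Vav3 rose by 2.37 on the log2 scale, Ptprj by 1.92, Itgb3 by 1.10 and the endothelial phosphatase Ptprb by 0.91. With the offset Vav3, which spans 345 kb, was at 1.05 and Ptprj at 1.16, and the call of Ptprb, which spans 114 kb, was lost (edgeR adjusted p = 0.419). In the angiopoietin list, 1 of 4 tested rose and 1 fell. Tie1 fell by 1.09 on the log2 scale, with 377 and 295 CPM in KLF2 replicates 1 and 2, against 543 CPM in vector replicate 2. Tek, which encodes Tie2, rose by 0.86, a call lost with the offset (edgeR adjusted p = 0.734). Angpt1, the ligand that Angpt2 opposes, did not pass the filter on low counts.

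Of 10 Notch genes tested, 1 rose and 2 fell. The target gene Hes1 rose by 1.32 on the log2 scale, the ligand Jag2 fell by 0.90 and the glycosyltransferase Lfng fell by 1.64. With the offset for span the call of Jag2 was lost (edgeR adjusted p = 0.0618) and Rbpj, the DNA-binding partner of Notch, was called lower (log2 fold change -1.36, edgeR adjusted p = 0.000271; named after its values were seen). Of 20 tip cell and vessel basement membrane genes, 7 rose and 3 fell. Kcne3 and Insr, which mark tip cells in several tissues, rose by 2.40 and 2.40, Ramp3 by 1.59 and the peptide Adm by 1.52. The 3 that fell were Pdgfb, a growth factor that tip cells release, by 1.26, the basement membrane proteoglycan Hspg2 by 1.13 and the chemokine receptor Cxcr4, also a tip cell marker, by 1.10 (named after their values were seen). With the offset for span, 5 genes of this list were called lower in place of 3. Of 8 caveola and fenestra genes, 3 fell (Cavin1 by 1.65, Ehd2 by 1.53 and Cavin2 by 1.21 on the log2 scale), and 4 were called lower with the offset for span.

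Of 9 cyclic nucleotide genes tested, 5 rose and 1, the nitric oxide synthase Nos3, fell by 0.87 on the log2 scale (named after its values were seen), a call that was lost with the offset for span (edgeR adjusted p = 0.0794). Prkg1 had 65.7 and 79.9 CPM in KLF2 replicates 1 and 2, against 1.68 CPM in vector replicate 2, and Pde4d had 217 and 207.5 CPM, against 13.3 CPM. They span 1200.5 and 1503.5 kb, and their log2 fold changes were 5.04 and 3.61 as counted and 2.75 and 1.11 with the offset. Only 2 genes of this list were called higher with the offset. Immediate early and heat shock genes, which tissue dissociation can induce, rose in 5 of 14 and fell in 2 (7 higher and 2 lower with the offset for span), and summed to 4293 and 6720 CPM in KLF2 replicates 1 and 2, against 3102 CPM in vector replicate 2.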

How the data were processed

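Cells were profiled by droplet single-cell RNA sequencing, and the deposited UMI counts per gene and cell were made by the authors with PISA v1.0, per the file headers. The build was GRCm38, per the submitters' processing notes. For the aligner, the annotation and the use of strand, the sources used here give nothing. Count matrices of KLF2 replicates 1 and 2 and vector replicate 2 were used. The counts of vector replicate 1 were not analysed here. No column of sample values was left unused (0 columns).

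Kept were cells in which 300 genes or more were detected and mitochondrial UMIs made up 25% or less, leaving 6209 and 11103 cells in KLF2 replicates 1 and 2 and 8403 in vector replicate 2. They were clustered with scanpy 1.11.5 and leidenalg 0.10.2 without the 10 genes, and classes were named from marker lists. A doublet caller marked 0 cells in each library, so doublets were not removed in the main result. Libraries shared 427 to 1289 cell barcode names by pair, from names of a generic form. The sums of UMIs over each class of each library were tested with edgeR 4.0.16 (quasi-likelihood, TMM scaling, its filter on low counts, Benjamini-Hochberg adjustment over all genes tested, threshold 0.05) in R 4.3.3, with 1 residual degree of freedom. DESeq2 1.42.0 was an alternative. The script was tested on simulated data. The labels call the replicates biological but do not say that each came from a separate mouse, so p-values measure the spread between these samples. To compare shares of cells with a UMI, cells were thinned to 1000 UMIs, which 1737 of 1792 vector endothelial-like cells reached. Wilson and Poisson intervals cover counting error only.

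The genes and lists were chosen with earlier results of these data known. Named were the 10 genes, of each list up to 4 called genes by size of fold change, Klf2, and the 10 genes of most similar pattern. Leaving out sub-clusters with leukocyte markers, summing Pde2a with Gm45837, and an offset for gene span (GENCODE M21) were added after the data were seen. The offset was a local regression trend of the log2 fold change over gene span, fitted to the same fold changes.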

Additional observations from a re-analysis of the deposited data

Results flagged for a closer look

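Esm1 moved in opposite directions in different cell classes. It rose in endothelial-like cells of the KLF2 tumours (log2 fold change 1.94) but fell in T/NK-like cells, with 3.15 and 2.43 CPM in KLF2 replicates 1 and 2, against 10.7 CPM in vector replicate 2 (log2 fold change -2.20 ± 0.67, edgeR adjusted p = 0.0288). That rested on 2 and 4 UMIs in KLF2 replicates 1 and 2, against 133 in vector replicate 2, and DESeq2 called 0 of the 10 genes lower there. The 14 endothelial markers also had lower levels in the T/NK-like cells, with 125 and 85.2 CPM in KLF2 replicates 1 and 2, against 278 CPM in vector replicate 2, and in the myeloid-like cells, with 199.6 and 159 CPM, against 282 CPM. Their part was not tested. In myeloid-like cells it had 1.61 and 1.33 CPM in KLF2 replicates 1 and 2, against 6.58 CPM in vector replicate 2 (log2 fold change -2.49 ± 0.58, edgeR adjusted p = 0.0152). The difference between the classes was not tested.

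Gm45837, which was in no comparison of its own, had 261 and 286 UMIs in endothelial-like cells of KLF2 replicates 1 and 2, and the gene list of vector replicate 2 does not hold it.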

How the results depend on the processing

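In endothelial-like cells 1532 genes were called higher and 1449 lower. DESeq2 called 710 and 320, a minimum of 500 genes per cell gave 814 and 745, cells taken by a count of markers gave 2880 and 2555, and cells thinned to 1000 UMIs gave 572 and 684. Without scaling 618 were called lower, and 77.5% of calls were higher against 51.4% with scaling. Of the 10 genes, 4 were called higher under each tested alternative except 500 genes per cell (3, without Flt1, edgeR adjusted p = 0.0638) and cells taken by a count of markers, where 0 were higher and 9 lower. Called lower was 1 of them with DESeq2, with at least 10 counts in 2 libraries, with 500 genes per cell and with Pde2a summed with Gm45837. With cells taken by a count of markers the log2 fold changes turned to -0.98 for Angpt2, -3.77 for Kdr, -2.29 for Flt1, -2.33 for Flt4, -2.26 for Esm1, -3.66 for Apln and -3.51 for Dll4. Thinning turned Apln to -0.50. Plvap, near 0, was 0.38 without scaling, 0.0074 with at most 10% mitochondrial UMIs, 0.11 without the mixed sub-clusters and 0.21 with the span offset. The causes were not tested.

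Outside endothelial-like cells, DESeq2 called lower 0 of the 10 genes in B/plasma-like and T/NK-like cells and 3 in myeloid-like cells, and the sum with Gm45837 left 0 in B/plasma-like cells and turned Pde2a to 0.31 in myeloid-like cells. Leaving out 1 KLF2 replicate left no residual degrees of freedom. Without KLF2 replicate 1 or 2 the log2 fold changes, with no test, were 2.55 and 3.64 for Angpt2, 0.20 and 0.50 for Kdr, 0.89 and 1.68 for Flt1, 1.53 and 1.82 for Flt4, 1.52 and 2.33 for Esm1, -0.63 and 1.36 for Apln, -0.77 and -2.97 for Aplnr, 0.026 and 0.011 for Plvap, 0.57 and 0.43 for Dll4, and -5.88 and -5.71 for Pde2a. The lone vector library could not be left out. No paired analysis was possible because the groups share fewer than 2 replicate numbers among libraries with counts. In endothelial-like cells of KLF2 replicates 1 and 2, Pde2a under its own symbol had 5 and 6 UMIs and Aplnr 10 and 62.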
